A study of Mus musculus and Rattus norvegicus with 11 samples.

Results

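The interferon gamma source, receptor and signalling genes described here are Ifng, Ifngr1, Ifngr2, Jak1, Jak2, Stat2, Irf1 and Socs1, taken from a list of named genes and followed through every annotated cell type of the nerve. All 8 were present in both feature tables, as 8 of 31053 mouse genes and 8 of 32883 rat genes. The values are unique molecular identifier counts (UMIs, 1 per captured RNA molecule) from droplet 3' single-cell RNA sequencing, and levels are given as CPM, the UMIs of a gene per 1000000 UMIs of the cell set. The mouse cells came from perfused sciatic nerves and brachial plexus, were digested with enzymes, rid of myelin debris and sorted for live cells. Of the mouse groups, 3 libraries are labelled Icam1 knockout on the NOD background, 3 come from NOD control mice and 3 from C57BL/6 mice. Both NOD groups share the NOD strain, whose mice tend to autoimmune disease. Rat cells came from sciatic nerves of naive Lewis rats in 2 libraries, purified on a density gradient and not sorted. The labels give no age, no treatment and no number of animals behind a library, so the spread between libraries may be technical.

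Interferon gamma is a cytokine made mainly by activated T cells and natural killer (NK) cells. It binds a receptor of an Ifngr1 chain, which carries the kinase Jak1, and an Ifngr2 chain, which carries Jak2. The kinases activate STAT transcription factors, which switch on genes such as Irf1 and the feedback inhibitor Socs1, and interferon gamma is best known in nerve for its part in inflammation.

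The titles of NOD control libraries 2-1 and 2-2 carry the same number, and these were summed as NOD control 2, which leaves 3 samples with the knockout label, 2 NOD control samples and 3 C57BL/6 samples. Annotated cells per mouse library numbered between 391 and 3613, with 561961 to 6411511 UMIs, and the rat libraries held 6424 and 5936 annotated cells. Libraries shared at most 0.983% of their cell barcodes. Icam1 itself stood at 248.0, 261.5 and 254.5 CPM in the libraries labelled Icam1 knockout, against 94.5 and 51.0 CPM in NOD control samples, which goes against the label. A 3' tag outside the deleted part of a gene checks nothing about a deletion, so the group is called by its label throughout, and every direction drawn from it carries this limit. Cell types carry their deposited names. Cells named nmSC held 78398 CPM of fibroblast markers and 133 CPM of Schwann cell markers in the knockout-labelled libraries, which goes against a Schwann cell reading of that name.

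All 8 genes had a promoter in the RefSeq table for the mouse build GRCm38.p6. The letters of the gamma-activated site (GAS, TTCNNNGAA, where STAT dimers can bind) and of the core of the interferon-stimulated response element (ISRE, GAAA and GAAA with any 2 bases between them) were searched on both strands from 250 bases before to 50 bases after each start. A GAS match stood in Irf1 and Ifng, an ISRE core match in Stat2 and Socs1, and 4 of the 8 genes (Ifngr1, Ifngr2, Jak1 and Jak2) had neither. Over 32851 mouse promoters of the same length, 8.30% held the GAS letters and 3.44% the ISRE core. The 250 bases before the start of the 3 response genes with a match are shown 5' to 3' because the values of these genes are set side by side later; capitals mark the matched letters. They are chr11:53769764-53770013 (+ strand) for Irf1, where the match TTCCCCGAA began 90 bases before the start, chr10:128270248-128270497 (+ strand) for Stat2 and chr16:10785537-10785786 (− strand) for Socs1, where 2 matches overlap.
Irf1: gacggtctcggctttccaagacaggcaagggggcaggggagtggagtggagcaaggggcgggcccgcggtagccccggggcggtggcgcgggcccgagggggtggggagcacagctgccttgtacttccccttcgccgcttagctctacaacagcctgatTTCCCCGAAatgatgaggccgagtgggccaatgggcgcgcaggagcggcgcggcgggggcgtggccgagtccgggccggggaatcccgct
Stat2: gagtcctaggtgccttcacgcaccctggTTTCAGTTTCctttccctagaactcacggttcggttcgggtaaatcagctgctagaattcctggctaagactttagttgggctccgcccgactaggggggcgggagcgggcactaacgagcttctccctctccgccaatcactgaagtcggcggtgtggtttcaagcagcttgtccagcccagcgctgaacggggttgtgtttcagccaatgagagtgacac
Socs1: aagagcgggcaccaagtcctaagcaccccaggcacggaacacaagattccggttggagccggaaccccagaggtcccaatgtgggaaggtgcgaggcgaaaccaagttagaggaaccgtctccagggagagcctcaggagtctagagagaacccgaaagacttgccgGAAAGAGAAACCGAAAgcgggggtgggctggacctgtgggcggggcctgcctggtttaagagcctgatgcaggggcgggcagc
These matches are descriptions of the letters, not of binding. A second Irf1 promoter in the table held neither motif.

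Ifng, which encodes the cytokine, lies on mouse chromosome 10 (mm10, 118441046 to 118445892, + strand). In the libraries labelled Icam1 knockout, 1129 Ifng UMIs were counted in annotated cells. Cells named CD8 held 632 of them (56.0%) and cells named CD4 held 456 (40.4%), so that 1088 lay in the T and NK cell set formed by these 2 names. B cells (BC) held 27 UMIs (2.39%), which are set beside T cell markers further on, and cells of the other names held 14 in all, with at most 5 in any name. NOD control cells held 9 Ifng UMIs in all, of which 7 were in CD8 cells, 1 in CD4 cells and 1 in fibro cells, and C57BL/6 cells held 19, of which 18 were in T cells (TC).

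Ifng averaged 382 ± 101 CPM in CD8 cells and 228.3 ± 23.8 CPM in CD4 cells of the knockout-labelled libraries (SD, n = 3). The 3 libraries gave 362.4, 292.4 and 491.3 CPM in CD8 cells, and 247.3, 201.6 and 235.9 CPM in CD4 cells. The lowest CD8 value stood above the highest CD4 value. An Ifng UMI was seen in 352 of 1294 CD8 cells (27.2%, 95% Clopper-Pearson interval 24.8 to 29.7) and in 242 of 2041 CD4 cells (11.9%, 10.5 to 13.3), with median depths of 1138.5 and 855.0 UMIs per cell. After every cell was thinned to 500 UMIs, which leaves out shallower cells, the shares averaged 15.0% ± 2.32 of CD8 cells and 7.32% ± 0.761 of CD4 cells (SD, n = 3).

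The Ifng UMIs were unevenly spread among cells of 1 name. The top 1% of CD4 cells held 32.5% of the Ifng UMIs of CD4 cells, and the top 1% of CD8 cells held 19.1% of theirs. The largest count in a single cell was 26 UMIs among CD8 cells and 15 among CD4 cells, while 222 of the 352 positive CD8 cells had 1 UMI. Among CD8 cells with a Cd8a or Cd8b1 UMI and no Cd4 or Cd40lg UMI (631 cells) the Ifng level was 402 CPM (95% Poisson interval 360 to 447). Among CD4 cells with a Cd4 or Cd40lg UMI and no Cd8a or Cd8b1 UMI (459 cells) it was 354 CPM (305 to 409), and the 2 intervals overlap. In 53 cells named CD8 that had an NK marker UMI and no T cell marker UMI, the level was 251 CPM (153 to 387), so the CD8 name also holds cells that look like NK cells by these markers. Intervals of counts cover counting error only, for these libraries.

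For T and NK cells as a set, Ifng stood at 300.3, 243.5 and 349.5 CPM (387, 298 and 403 UMIs) in the knockout-labelled samples, against 229.5 and 8.52 CPM (5 and 3 UMIs) in NOD control samples. In CPM all knockout-labelled values lie above both NOD control values, but NOD control 1 rests on 42 cells and 5 UMIs and lies close to the lowest of them. Fitted across all genes, Ifng was 3.63 ± 0.41 higher on the log2 scale (SE; edgeR quasi-likelihood, adjusted p = 2.42e-16). With 5 and 3 UMIs in the NOD control samples, Ifng passed the filter on low counts through the knockout-labelled samples. Its call is therefore given as a description. Weighting samples equally gave means of 297.7 ± 53.1 CPM (SD, n = 3) and 119 ± 156 CPM (SD, n = 2). An exact two-sided permutation test of these CPM values gave p = 0.2. That is the smallest p that 3 against 2 samples allow in this test, so it could not have called a difference of any size. Without NOD control 2, edgeR gave 0.99 with an adjusted p of 0.497, so the call rests on that sample, and DESeq2 gave 2.51 with an adjusted p of 0.086.

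Cells named CD8 made up 39.8%, 38.4% and 38.3% of the T and NK set in the knockout-labelled samples, against 7.14% and 9.62% in NOD control samples. The markers did not follow these names alike in both groups. Cells named CD4 held 336 CPM of CD4 T cell markers and 124 CPM of CD8 T cell markers in the knockout-labelled libraries, against 92.8 and 216 CPM in NOD control samples, so unlike cells stand under this name. Of the NOD control cells with a Cd8a or Cd8b1 UMI and no Cd4 or Cd40lg UMI, 49 were named CD4 and 13 were named CD8. Over the whole set, CD8 T cell markers summed to 485.0, 509.8 and 561.1 CPM, against 0 and 252.7 CPM, and CD4 T cell markers to 217.3, 184.6 and 203.8 CPM, against 0 and 96.5 CPM. The low CD8 share of the NOD control samples is therefore a share of names, which is not the same as a share by marker. By marker, too, the CD8 T cell list was lower in both NOD control samples over the whole set, as was the CD4 T cell list. T cell markers (5 of 5 in the table) summed to 8843, 8544 and 8631 CPM in that set, against 1102 and 4929 CPM, and fibroblast markers to 423.7, 347.2 and 248 CPM, against 1148 and 1675 CPM. Red cell markers stood at 6039, 159 and 3170 CPM, against 275 and 151 CPM. The part of the CD8 share and of the fibroblast markers in the results for the T and NK set was not tested, while leaving out cells with over 20% red cell UMIs gave 3.64 for Ifng.

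The few Ifng UMIs of the knockout-labelled libraries outside the T and NK set were set beside T cell markers. Ifng stood at 3.42 UMIs per 100 T cell marker UMIs in T and NK cells (95% interval 3.22 to 3.63) and at 3.79 per 100 in all other cells (41 and 1081 UMIs, 2.71 to 5.18). In B cells, 25 of 1107 cells had an Ifng UMI (2.26%, median 1021 UMIs per cell), at 4.36 per 100 T cell marker UMIs (2.85 to 6.41), and 7 of the 25 also had a T cell marker UMI. Of the 38 cells outside the set with an Ifng UMI, 13 also had a T cell marker UMI. The ratio pooled over cells outside the set was within counting error of that in T and NK cells. In nmSC and endothelial (EC) cells it rests on 5 and 2 Ifng UMIs, with wide 95% intervals (1.53 to 11.6 and 0.797 to 27.3 per 100). Whether these UMIs are background or Ifng expression by B cells, nmSC, myeloid (MC) or EC cells was not tested. B cells had 12, 6 and 9 Ifng UMIs in the knockout-labelled samples, against 0 in NOD control samples. The rate was 4.45-fold higher when 3 counts are allowed over the NOD control group, and the exact lower 95% limit of the ratio was 3.37.

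**Figure D1:**
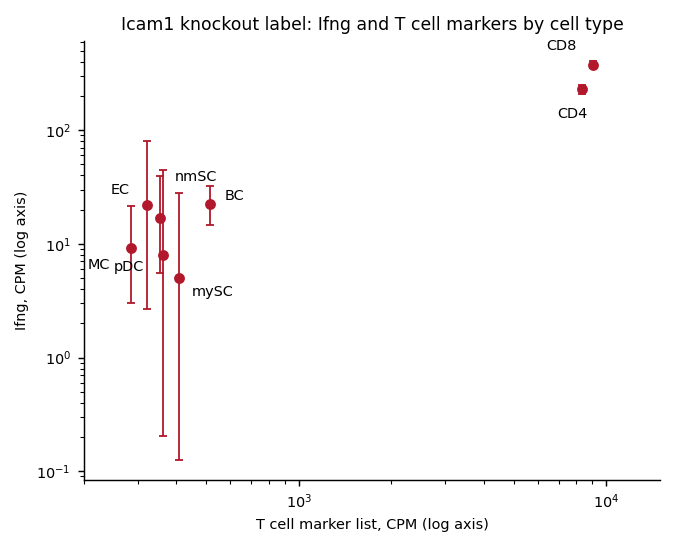
Ifng level against the summed level of the T cell marker list (Cd3e, Cd3d, Cd3g, Trac, Trbc2) by cell type, both in CPM on log axes, over the 3 libraries labelled Icam1 knockout; bars are exact 95% Poisson intervals. CD8 and CD4 cells stand apart at the upper right, and the types outside the T and NK set lie at 284 to 514 CPM of T cell markers with Ifng near 20 CPM or lower.

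Ifngr1 (chromosome 10, 19591949 to 19610229, + strand) encodes the chain that binds the cytokine, and its highest levels lay in the T and NK cell set of the knockout-labelled libraries. It averaged 1107 ± 93.8 CPM in CD4 cells, 693.5 ± 89.4 in CD8 cells, 343.9 ± 34.9 in MC, 332.9 ± 69.5 in nmSC, 208.2 ± 83.9 in EC, 193 ± 9.97 in B cells and 163 ± 19.9 in mySC, which carry Schwann cell markers (SD, n = 3 each). MC and nmSC differed by less than their spread, and the EC values overlapped those of both B cells and mySC. NOD control cells ran in another order: 288.6 ± 61.8 CPM in nmSC, 272.2 ± 7.14 in MC, 219.2 ± 27.6 in fibro, 144.6 ± 3.87 in CD4, 120.5 ± 45.6 in mySC and 113.2 ± 21.6 in EC (SD, n = 2). In C57BL/6 libraries T cells averaged 352.7 ± 315 CPM and nmSC 283.3 ± 140 (SD, n = 3), a spread that leaves no order between them. An Ifngr1 transcript was thus measured in every type of nerve cell that had at least 20 cells in a library.

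In the T and NK set Ifngr1 stood at 957.6, 980.3 and 817.8 CPM in the knockout-labelled samples, against 137.7 and 144.8 CPM (3 and 51 UMIs) in NOD control samples. The groups lie far apart, and the NOD control samples differ little from each other although 1 has 3 UMIs. The fitted difference was 2.59 ± 0.35 on the log2 scale (edgeR, adjusted p = 1.93e-11), and it was 3.35 without NOD control 1. Between the cells named CD4, which differ in their markers as given with the Ifng values, Ifngr1 stood at 1146, 1175 and 999.8 CPM, against 147.4 and 141.9 CPM, and the groups do not overlap there. Of the 8 genes, 3 were called in the T and NK set, 2 of them higher and 1 lower, where 11.6% of all 8285 genes tested were called (6.46% higher and 5.13% lower). The T and NK set thus changed broadly, and the median log2 difference over all its genes was 0.09. Of the 8 genes, the higher ones were Ifng, with the limit of the filter given above, and Ifngr1.

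In the 3 other sets in which it could be tested, Ifngr1 did not pass. B cells and fibro were not tested for want of cells, and their rates of Ifngr1 were higher with the knockout label: 233 UMIs against 32 in B cells (ratio of rates 3.60, 95% interval 2.48 to 5.38) and 21 against 136 in fibro, of which the knockout-labelled libraries held 20 cells in all, against 519 (2.64, 1.58 to 4.201). Myeloid cells (MC and pDC) had 290.6, 315.5 and 275.5 CPM in knockout-labelled samples, against 257.9 and 273.7 CPM in NOD control samples (log2 −0.03 ± 0.24, edgeR adjusted p = 0.947). The log2 difference was 0.19 ± 0.24 in nmSC and 0.53 ± 0.39 in mySC (edgeR adjusted p = 0.719 and 0.48). The difference between sets was itself tested with an interaction of set and label: the effect on Ifngr1 was lower than in T and NK cells by 2.58 ± 0.38 log2 units in myeloid cells (edgeR adjusted p = 3.8e-07), by 2.37 ± 0.33 in nmSC (adjusted p = 3.72e-05) and by 2.11 ± 0.44 in mySC (adjusted p = 0.000172). Calls over all genes tested in these 3 pairs were 4.19%, 5.87% and 12.7%, and of 20 tests of the 8 genes over the set pairs 4 passed. In the 3 pairs of sets without T and NK cells none of the 8 was called, where 4.42% (nmSC and mySC), 4.52% (nmSC and myeloid cells) and 5.71% (mySC and myeloid cells) of all genes were. The mySC difference was lost without NOD control 2 (adjusted p = 0.493).

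Ifngr2 (chromosome 16, 91547072 to 91565623, + strand) encodes the second receptor chain, and it was low in the T cells of the knockout-labelled libraries. In the knockout-labelled libraries it averaged 173.6 ± 13.5 CPM in MC, 84.4 ± 41 in nmSC, 80.4 ± 23.4 in B cells, 60.3 ± 27.8 in mySC, 30.2 ± 28.7 in EC, 24.98 ± 6.16 in CD4 and 5.17 ± 5.74 in CD8 cells (SD, n = 3). MC stood above all of these, nmSC, B cells and mySC overlapped, and CD8 cells had 9 UMIs in 1294 cells. The highest Ifngr2 level in C57BL/6 nerve was in the cells named PC (mural cell markers at 7621 CPM), with 312.1 and 661.2 CPM in the libraries with at least 20 of them (12 and 132 UMIs), against 64.1 ± 33.6 CPM in fibro cells (SD, n = 3). The NOD control cells named vSMC/PC (mural cell markers at 10697 CPM) held 15 UMIs in 76 cells, which is 298 CPM in the only sample with 20 of them. T cells were not low in the other mouse groups. C57BL/6 T cells averaged 59.1 ± 15.9 CPM, against 30.8 ± 14.2 in nmSC and 14.7 ± 13.2 in EC (SD, n = 3). NOD control CD4 cells averaged 95.1 ± 73.9 CPM, against 48.1 ± 4.67 in nmSC (SD, n = 2).

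T and NK cells had 21.7, 10.6 and 15.6 CPM of Ifngr2 in the knockout-labelled samples, against 137.7 and 36.9 CPM (3 and 13 UMIs) in NOD control samples. All 3 lie below both NOD control values, of which the higher rests on 3 UMIs. The fit gave −1.54 ± 0.50 (edgeR, adjusted p = 0.0222), and 9 of 15 alternatives lost the call, among them the cells named CD4 alone (adjusted p = 0.132) and each NOD control sample left out (adjusted p = 0.0638 and 0.305). All 16 NOD control UMIs of Ifngr2 lay in cells named CD4 and 0 in the 48 cells named CD8, and fibroblast markers were also higher in the NOD control T and NK cells, as given with the Ifng values.

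In myeloid cells the order of the groups was the other way round, with 177.8, 182.2 and 152 CPM of Ifngr2 in knockout-labelled samples, against 89.7 and 107.5 CPM in NOD control samples. These groups do not overlap, but the fit gave 0.58 ± 0.30 with an edgeR adjusted p of 0.211. The effect in myeloid cells exceeded that in T and NK cells by 2.23 ± 0.62 log2 units (edgeR interaction, adjusted p = 0.0223), a call lost without either NOD control sample (adjusted p = 0.088 and 0.292), without knockout-labelled sample 1 (0.0678) and without knockout-labelled sample 2 (0.0765). The same difference for nmSC was 2.44 ± 0.74 (adjusted p = 0.0524).

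**Figure D2:**
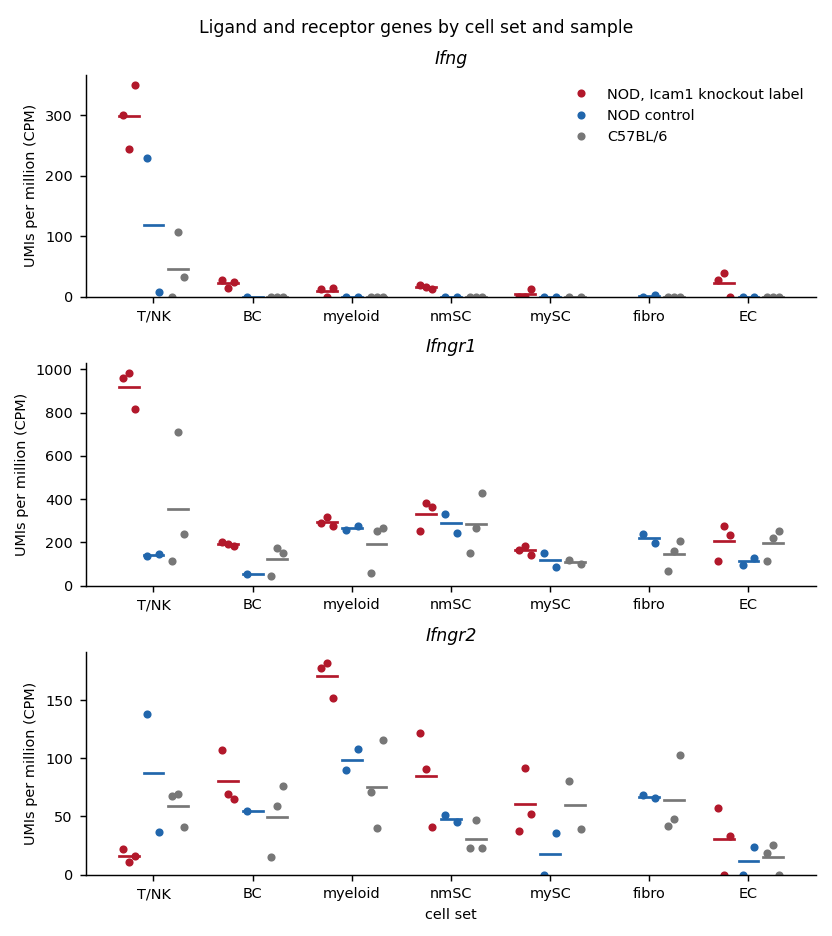
Levels of Ifng, Ifngr1 and Ifngr2 in CPM (vertical axes) by cell set; each point is 1 sample with at least 20 cells of the set, and each line is the group mean. Ifng is highest in T and NK cells, Ifngr1 in knockout-labelled T and NK cells lies between 817.8 and 980.3 CPM, and Ifngr2 in the same cells lies between 10.6 and 21.7 CPM.

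Jak1 (chromosome 4, 101152367 to 101265282, − strand), the kinase of the Ifngr1 chain, was highest in lymphocytes in the knockout-labelled libraries. It averaged 337.9 ± 11.6 CPM in CD8, 281.6 ± 19.9 in CD4, 193.6 ± 51.2 in B cells, 89.0 ± 21.0 in MC, 82.1 ± 18.6 in nmSC and 41.6 ± 20.1 in mySC of the knockout-labelled libraries (SD, n = 3). In T and NK cells the samples gave 301.1, 310.4 and 310.5 CPM with the knockout label, against 45.9 and 187.4 CPM (1 and 66 UMIs) in NOD control samples. These groups do not overlap, and the log2 difference of 0.69 ± 0.25 missed the threshold (edgeR adjusted p = 0.0525). C57BL/6 T cells had 144.8 ± 10.4 CPM and fibro cells 142.2 ± 34.4 CPM (SD, n = 3), so that no order can be read there.

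Jak2 (chromosome 19, 29251828 to 29313080, + strand), the kinase of the Ifngr2 chain, was sparse in mouse cells. Its level averaged 58.5 ± 59.2 CPM in EC (5 UMIs), 44.3 ± 8.53 in CD4, 31.7 ± 14.9 in MC, 27.7 ± 10.5 in B cells, 25.7 ± 26.0 in mySC (6 UMIs), 14.0 ± 6.29 in CD8 and 10.0 ± 8.81 in nmSC of the knockout-labelled libraries (SD, n = 3). The EC and mySC values reach down to 0, so neither has a place in the order. T and NK cells had 21.7, 35.1 and 34.7 CPM, against 45.9 and 8.52 CPM (1 and 3 UMIs) in NOD control samples, and the groups overlap (log2 1.36 ± 0.70, edgeR adjusted p = 0.216). The ratio of rates was 2.83 (111 and 4 UMIs, 95% interval 1.08 to 10.6). Over all lymphoid cells, a wider set, the difference was 1.79 ± 0.53 and passed the test (edgeR adjusted p = 0.00707).

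Stat2 (chromosome 10, 128270559 to 128292849, + strand) encodes a STAT protein best known from the signalling of type I interferons. In myeloid cells it stood at 47.7, 80.0 and 42.8 CPM (38 UMIs) in knockout-labelled samples, against 11.2 and 4.89 CPM (1 UMI each) in NOD control samples. The groups do not overlap, the ratio of rates was 8.38 (95% interval 2.17 to 71.7), and the difference passed the test (edgeR, log2 2.78 ± 0.80, adjusted p = 0.0268). With 1 UMI in each NOD control sample, Stat2 passed the filter on low counts through the knockout-labelled samples. The call is therefore given as a description. The cells named pDC held 16 of the 38 UMIs and made up 46 of 257 myeloid cells, against 9 of 229 in NOD control samples, and without pDC the gene had too few counts to be fitted. Without NOD control 2 the call was lost (adjusted p = 0.268). In T and NK cells Stat2 had 29.5, 28.6 and 32.1 CPM, against 0 and 14.2 CPM, which missed the threshold (edgeR adjusted p = 0.346).

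Irf1 (chromosome 11, 53770014 to 53778374, + strand), a transcription factor that interferon gamma induces, passed the test in myeloid cells and in mySC. Myeloid cells had 368.7, 306.6 and 451.3 CPM in knockout-labelled samples, against 157.0 and 185.7 CPM in NOD control samples. The groups do not overlap, and the difference was 0.93 ± 0.27 on the log2 scale (edgeR, adjusted p = 0.0299). Irf1 and Stat2 were 2 of the 6 genes tested in myeloid cells, both higher, where 16.4% of all genes were called (8.11% higher). Myeloid markers stood beside these results at 13835, 10930 and 13039 CPM in the knockout-labelled myeloid cells, against 28587 and 23017 CPM, and their part in them was not tested. The Irf1 call was lost without either NOD control sample, without knockout-labelled sample 3 and without pDC (adjusted p = 0.0963 to 0.106).

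In mySC Irf1 had 326.9, 228.4 and 376.6 CPM in knockout-labelled samples, against 152.7 and 73.8 CPM (2 and 41 UMIs) in NOD control samples. Again the groups do not overlap, and the log2 difference was 1.75 ± 0.38 (edgeR, adjusted p = 0.0029). It was 1 of 2 of the genes tested in mySC, where 11.4% of all genes were called (5.61% higher). The call was lost in 6 of 11 alternatives, among them DESeq2 (adjusted p = 0.275) and edgeR without NOD control 2 (adjusted p = 0.512). These sets are small, with 46, 28 and 50 mySC in knockout-labelled samples, against 20 and 740 in NOD control samples. T cell markers stood beside it at 352, 502.5 and 415.6 CPM, against 0 and 54.0 CPM, and Schwann cell markers at 7996, 7081 and 6182 CPM, against 20162 and 22563 CPM. Without the mySC that had a T cell marker UMI, Irf1 was at 226.6, 181.6 and 93.1 CPM (9, 4 and 4 UMIs), against 152.7 and 76.8 CPM, and those groups overlap. In myeloid cells the same removal left 339.7, 213.4 and 532.5 CPM, against 157.0 and 168.8 CPM, without overlap (edgeR adjusted p = 0.106).

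Cells named nmSC had 253.2, 74.6 and 242.8 CPM of Irf1 in the knockout-labelled samples, against 74.0 and 62.7 CPM in NOD control samples. Sample 2 with the knockout label lay next to the NOD control values, and the log2 difference of 1.40 ± 0.41 did not pass (edgeR adjusted p = 0.0777). None of the 4 genes tested in nmSC was called, against 3.9% of all genes, and 1 had an unadjusted p under 0.05. In EC, 2.6% of all genes were called and none of the 8 had enough counts to be tested. T and NK cells had 197.9, 211.6 and 196 CPM of Irf1, against 137.7 and 119.3 CPM, a difference of 0.62 ± 0.27 that missed the threshold (edgeR adjusted p = 0.125).

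Socs1 (chromosome 16, 10782240 to 10785536, − strand), which inhibits the JAK kinases, averaged 137.5 ± 8.28 CPM in CD4 cells of the knockout-labelled libraries, 98.0 ± 43.7 in nmSC and 95.8 ± 1.55 in CD8 cells (SD, n = 3). The highest nmSC value, 148.4 CPM, lay above every CD4 value (128.0 to 142.5 CPM), so CD4 cells and nmSC have no order. T and NK cells had 112.5, 121.7 and 121.4 CPM, against 45.9 and 56.8 CPM in NOD control samples. No value of 1 group reached the other, yet the log2 difference of 0.95 ± 0.35 missed the threshold (edgeR adjusted p = 0.0564). Myeloid cells had 35 UMIs, against 3 in NOD control samples, a ratio of rates of 5.14 (95% interval 1.62 to 26.1; edgeR adjusted p = 0.068). In nmSC the samples gave 70.9, 74.6 and 148.4 CPM, against 28.8 and 38.8 CPM, without overlap and without enough counts for the fit.

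**Figure D3:**
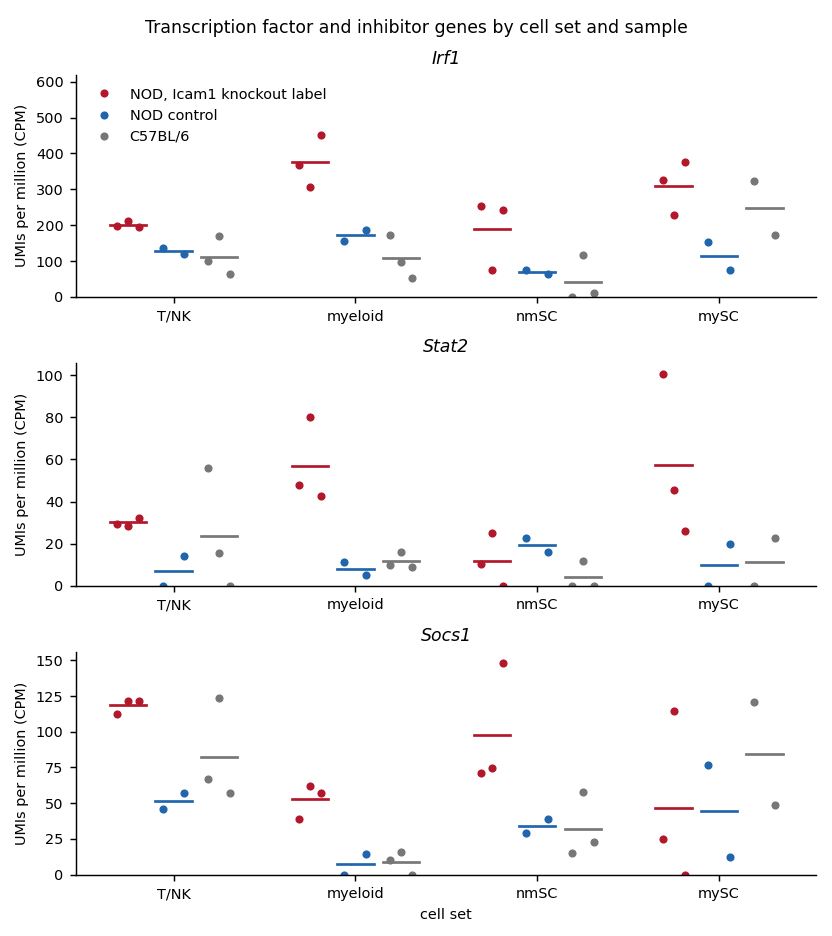
Levels of Irf1, Stat2 and Socs1 in CPM (vertical axes) in 4 cell sets; each point is 1 sample with at least 20 cells of the set, and each line is the group mean. In myeloid cells the knockout-labelled samples lie above both NOD control samples for all 3 genes, while Stat2 in nmSC overlaps between the groups.

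**Figure D4:**
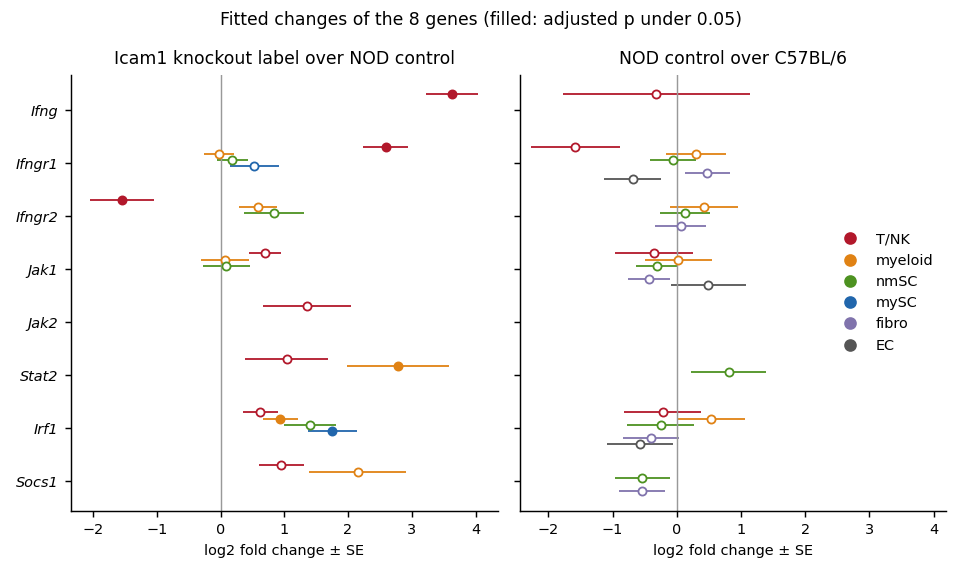
Fitted log2 fold change (horizontal axes, ± SE, edgeR) of each gene in each cell set that had enough counts, for the knockout label over NOD control at the left and NOD control over C57BL/6 at the right; filled points have an adjusted p under 0.05. At the left Ifng and Ifngr1 lie at 3.63 and 2.59 and Ifngr2 at −1.54 in T and NK cells, and at the right no point is filled.

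Genes that drive Ifng in lymphocytes were counted from a list of 16. In T and NK cells 8 were tested and 4 rose with the knockout label, with a median log2 difference of 2.21 over those tested, against 0.09 over all genes, of which 6.46% were called higher. Genes with few NOD control UMIs passed the filter on low counts through the knockout-labelled samples. The count and the median are therefore descriptions. Eomes, a T-box transcription factor of cytotoxic cells, had 245 UMIs, against 1 in NOD control samples (ratio of rates 24.99, 4.44 to 991; edgeR adjusted p = 7.79e-06). Tbx21, the T-box factor of type 1 helper cells, had 197 UMIs, against 3 (ratio 6.70, 2.26 to 32.8; edgeR adjusted p = 0.00268). Stat4, which carries the interleukin 12 signal, averaged 118 ± 14.8 CPM (SD, n = 3), against 8.52 ± 12.05 CPM in NOD control samples (SD, n = 2; edgeR log2 2.74 ± 0.50, adjusted p = 1.7e-06). Il18r1, a chain of the interleukin 18 receptor, rose by 1.67 ± 0.40 (edgeR adjusted p = 0.00079). Eomes is also an NK cell marker, and the NK marker list summed to 429, 370 and 416 CPM in this set, against 91.8 and 68.2 CPM.

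Of 34 other genes known to respond to interferon gamma, 17 were tested in mySC and 17 rose, with a median log2 difference of 3.38, against 0.02 over all genes, of which 5.61% were called higher. Genes with few or no NOD control UMIs passed the filter on low counts through the knockout-labelled samples, so the share that rose is a description. Gbp3, a guanylate-binding protein, had 57 UMIs in mySC, against 2 in NOD control samples (ratio of rates 80.9, 21.4 to 684; edgeR adjusted p = 1.72e-06). Irgm1, an immunity-related GTPase, had 77 UMIs, against 3 (ratio 72.9, 24.0 to 361; edgeR adjusted p = 6.42e-06). The count was 5 without NOD control 2 and 11 without mySC that had a T cell marker UMI.

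Myeloid cells gave 16 higher among 23 tested, with a median of 1.65, against 0.04 over all genes, of which 8.11% were called higher. As in mySC, genes with few or no NOD control UMIs passed the filter through the knockout-labelled samples, so this count is a description. Cxcl9, a chemokine that draws T cells, had 127 UMIs, against 0 in NOD control samples, a rate at least 18.7-fold higher when 3 counts are allowed over that group (edgeR adjusted p = 7.06e-05). Gbp2 averaged 469 ± 19.2 CPM (SD, n = 3), against 23.4 ± 1.42 CPM (SD, n = 2; edgeR log2 4.10 ± 0.36, adjusted p = 4.04e-06). T cell markers in these cells stood at 281.9, 186.6 and 437 CPM, against 0 and 63.5 CPM, and the count was 14 without cells that had a T cell marker UMI.

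T and NK cells gave 9 higher among 25 tested, with a median of 0.83, where 6.46% of all genes were called higher. The limit of the filter given for mySC holds for this count too. The nmSC and EC gave 0 among 6 and 7 tested, with medians of 0.57 and 0.75, against 0.02 and −0.03 over all genes, of which 3.9% and 2.6% were called in either direction. In T and NK cells Gbp2 rose by 1.72 ± 0.44 (edgeR adjusted p = 0.00208), and Parp14, an ADP-ribosyltransferase, had 152 UMIs, against 2 in NOD control samples (ratio of rates 7.75, 2.11 to 64.6; edgeR adjusted p = 0.00675). The count of 9 was 1 with DESeq2. The nmSC held few cells in the knockout-labelled samples, 49, 84 and 54, against 982 and 1221 in NOD control samples, so that few genes could be tested.

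Of 13 other receptor, JAK and STAT genes, 3 of 13 tested rose in T and NK cells, where 6.46% of all genes were called higher, 2 of 8 in myeloid cells, where 8.11% were, and 0 of 2 in mySC and in nmSC. Stat3, which serves interleukin 6 and 10, rose by 1.59 ± 0.34 in T and NK cells (edgeR adjusted p = 7.46e-05). The fit for Ifnar1, a chain of the type I interferon receptor, gave 1.74 ± 0.39 (edgeR adjusted p = 0.000205). Ifnar1 averaged 138 ± 12.5 CPM with the knockout label (SD, n = 3), against 106 ± 110 CPM in NOD control samples (SD, n = 2; 14 UMIs). The NOD control spread covers the knockout-labelled mean, so no rise over each NOD control sample can be read for Ifnar1. Ifnar2, the other chain, rose by 1.06 ± 0.31 in myeloid cells (edgeR adjusted p = 0.0279). Of 15 negative regulators, 0 of 13 tested passed in T and NK cells, and 1 of 6 in myeloid cells, against the same 8.11%. That gene was Usp18, an inhibitor of type I interferon signalling, with 43 UMIs, against 3 (ratio of rates 6.32, 2.02 to 31.8; edgeR adjusted p = 0.0394). Usp18 passed the filter on low counts through the knockout-labelled samples. The limit of the filter given for mySC holds for the counts of both lists, which are descriptions. No gene of the 4 lists was called lower in any set tested, where 5.13% of all genes were called lower in T and NK cells. Genes that passed the filter through the knockout-labelled samples could hardly be called lower, and few were tested in mySC and nmSC.

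NOD control cells were also set against C57BL/6 cells, with the same NOD control samples as in the comparison above. None of the 8 genes was called by edgeR in T and NK cells (4 tested, where 1.29% of all genes were called), nmSC (6 tested, 2.28%), fibro (5 tested, 1.82%), EC (3 tested, 1.96%) or myeloid cells (4 tested, 1.3%). The count at an unadjusted p under 0.05 was 1 in T and NK cells and 0 in the others. That 1 was Ifngr1, with 137.7 and 144.8 CPM in NOD control samples, against 112.1, 709.2 and 236.8 CPM in C57BL/6 samples, where the groups overlap (edgeR log2 −1.58 ± 0.69, adjusted p = 0.703). The fitted differences ran from this value to 0.81 for Stat2 in nmSC, and the 4 lists gave 0 calls. In T cells of C57BL/6 nerve, Ifng had 0, 14 and 4 UMIs, which is 0, 107.9 and 32.7 CPM, a range that holds the lower NOD control value.

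In naive Lewis rat nerve a single Ifng UMI was counted, in 975 T cells of the 2 libraries. T cells of the 2 libraries had 0.935 and 0 CPM, and the count of 0 allows up to 2.61 CPM. Ifngr1 stood at 340.3 and 269.1 CPM in T cells, 225.9 and 194.3 in MHC II APC, 210.4 and 172.7 in B cells, and 188.2 and 178.9 in microvasculatory EC. The B cell range overlaps those of MHC II APC and microvasculatory EC, and fibro cells were lowest with 69.4 and 65.9 CPM. Ifngr2 stood at 33.7 and 29.6 CPM in T cells and was highest in the myeloid cells named PF4 MC, at 195.1 and 191.8 CPM. Rat cells named nmSC had 31620 CPM of fibroblast markers and 87.7 CPM of Schwann cell markers, as in mouse.

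Jak2 in rat was highest in MHC II APC, at 158.0 and 170.4 CPM, and next in microvasculatory EC, at 101.3 and 121.2 CPM. Jak1 was highest in microvasculatory EC, at 141.6 and 130.5 CPM, and its values in B and T cells lay close together, between 103.6 and 113.7 CPM. Irf1 stood at 665.1 and 633.6 CPM in vascular EC, at 262.9 and 238.5 CPM in fibro cells and at 48.0 and 54.6 CPM in MHC II APC. These 3 types do not overlap, and vascular EC had the highest Irf1 level among the rat types. Endothelial markers (3 in the rat table) summed to 751.5 CPM in vascular EC and 357.5 CPM in microvasculatory EC, below their fibroblast markers at 3909 and 3140 CPM, so these 2 names are used as deposited. Socs1 had 74.0 and 121.2 CPM in microvasculatory EC, 87.8 and 80.1 in nmSC and 82.4 and 79.9 in fibro cells, which overlap, and 23.2 and 22.0 in PF4 MC. Stat2 was at most 51.5 CPM in any rat type, in microvasculatory EC.

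**Figure D5:**
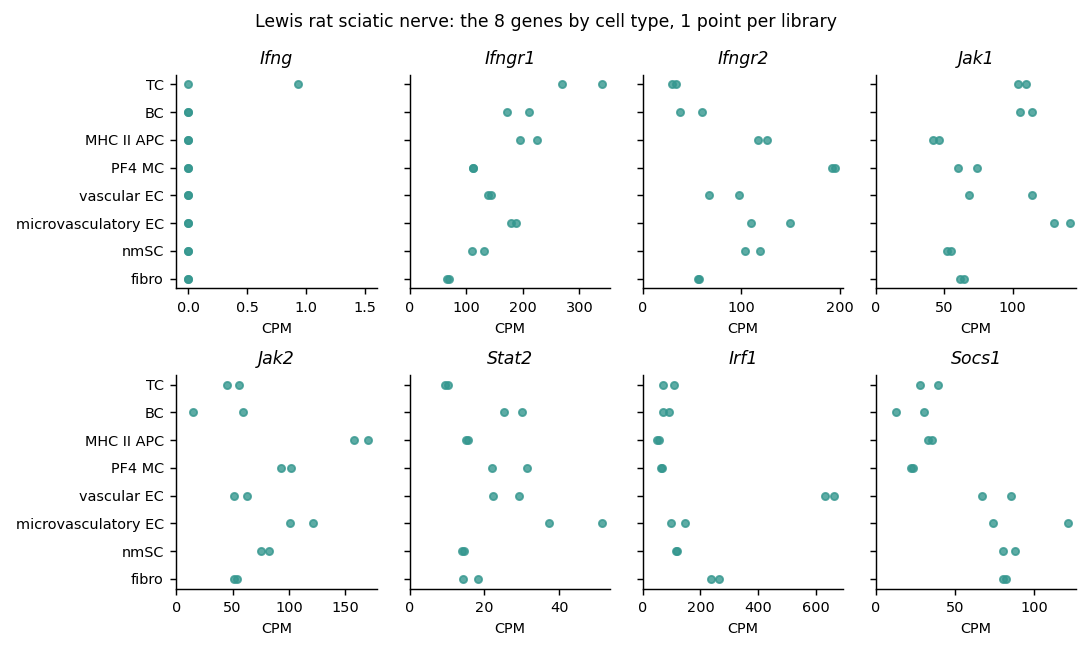
Levels of the 8 genes in CPM (horizontal axes, each with its own scale) by rat cell type; each point is 1 of the 2 libraries. Ifng is at or near 0 in every type, Ifngr2 is highest in PF4 MC, Jak2 in MHC II APC and Irf1 in vascular EC.

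Across 51 mouse units (a cell type in a library, with at least 50 cells), the genes whose log2 CPM ran most like Ifng were Fasl (Pearson r = 0.96), Pdcd1 (0.92), Tbx21 (0.92), Gimap7 (0.91) and Gzmk (0.91), out of 8473 genes ranked. Fasl encodes the death ligand of cytotoxic cells and Pdcd1 the inhibitory receptor PD-1. Irf1 ran most like Nfkbia (0.73), an inhibitor of NF-κB, and Jak1 like Akap13 (0.79). Ifngr1 ran most like Dnaja1 (0.77), a heat shock co-chaperone, and Hspa5 (0.76), a chaperone of the endoplasmic reticulum, was also among its 5 most alike. Ifngr2 ran most like Slc11a1 (0.68), a metal transporter of macrophages, and Socs1 like Thy1 (0.71). Units share libraries and depth, and the likenesses are descriptions without a test.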

How the data were processed

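Members and gene lists were chosen with earlier results of these data known. The deposited matrices hold raw UMI counts, made by the authors for 31053 genes and 16050 barcodes in mouse and 32883 genes and 12500 barcodes in rat, and cell type names cover 15672 and 12360 barcodes. Cell Ranger 3.0.2, mm10 and Rnor_6.0 are named in the submitters' processing notes. Cell filters, clustering, doublet removal and any treatment of free RNA were not stated in the labels or files, and no doublet caller was run. The labels name 2 sequencers but not which library ran on which.

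Python 3.11.15 (numpy 2.4.6, pandas 2.3.3, scipy 1.17.1) was used to add up counts over the cells of each set in each sample. Where every sample had at least 20 cells, a set was tested with edgeR 4.0.16 (R 4.3.3): quasi-likelihood, TMM scaling, no covariates, genes kept by filterByExpr at a minimum count of 10, and Benjamini-Hochberg adjustment over all genes of the set with a threshold of 0.05. Fibro and B cells did not reach 20 cells in the knockout comparison. Poisson and Clopper-Pearson intervals (95%) and the 3-count floor cover counting error only. Ratios of rates, over the summed counts of a group, are given for small counts and for sets that were not tested. The 8 genes were named in every set. Other genes are examples from up to 4 called members of each list with the largest change, and from the 5 genes most like each member by correlation of log2(CPM + 10), among genes with at least 200 UMIs. Alternatives were DESeq2 1.42.0, RLE factors, no filter, other set and sample definitions, leaving out samples and the replicate number as a block. Gene positions come from GENCODE and promoters from RefSeq (GRCm38.p6).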

Additional observations from a re-analysis of the deposited data

Results flagged for a closer look

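The effect of the Icam1 knockout label on Ifngr1 differed between cell sets in an interaction test: it was −2.37 log2 units in nmSC relative to T and NK cells, −2.11 in mySC and −2.58 in myeloid cells (edgeR adjusted p = 3.72e-05, 0.000172 and 3.8e-07). For Ifngr2 the effect in myeloid cells relative to T and NK cells was 2.23 (edgeR adjusted p = 0.0223). Among mouse barcodes without a cell type name, Ifngr1 stood at 338.4 CPM in the 123 of the knockout-labelled libraries (56 UMIs, 95% interval 255.6 to 439.4), against 96.2 CPM in the 53 of NOD control libraries (6 UMIs, 35.3 to 209.4) and 172.8 CPM in the 202 of C57BL/6 libraries (40 UMIs, 123.5 to 235.4). No cause of these differences was tested.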

How the results depend on the processing

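Counts of the 8 genes called for the knockout label against NOD control moved as follows; no cause was tested. In T and NK cells the count of 3 was 1 with DESeq2, 7 over all lymphoid cells, 5 with control libraries 2-1 and 2-2 as separate samples, 0 with the knockout-labelled libraries summed as 1 sample, and 2 to 5 leaving out each sample in turn. In mySC the count of 1 was 0 with DESeq2, with the knockout-labelled libraries summed, without a filter on low counts, with the replicate block and without cells that had a T cell marker UMI, and 0 to 1 leaving out samples. In myeloid cells the count of 2 was 1 with separate control libraries, 0 with DESeq2, with the knockout-labelled libraries summed, without pDC (added after seeing the data), with the replicate block and without cells that had a T cell marker UMI, and 0 to 2 leaving out samples. In nmSC the count of 0 was 1 with separate control libraries and 0 to 1 leaving out samples. The interaction count of 4 was 2 to 5. Under the replicate block Ifng and Ifngr1 stayed called in T and NK cells (edgeR adjusted p = 0.0116 and 0.00638). Replicate numbers were not taken as pairs: deviations of same-numbered samples correlated between −0.04 and 0.12 over 2 pairs. No paired analysis was possible for NOD control against C57BL/6 because these groups share 1 number. Ifng in T and NK cells ran from 0.99 to 5.93 log2 over 15 alternatives and lost its call in 3 of them (DESeq2, without NOD control 2, knockout-labelled libraries summed), Ifngr1 from 2.51 to 3.35 and lost it in 1 (libraries summed). Thinning to 500 UMIs per cell gave Ifng in 7.32% of CD4 and 15.0% of CD8 cells. Socs1 in nmSC, NOD control over C57BL/6, was −0.54, and 0.78 without C57BL/6 sample 3 (range −0.75 to 0.78 leaving out samples); neither was called. NOD control 1 limits the T and NK comparison with 42 cells, and Jak2, Stat2 and Socs1 rest on few UMIs per sample.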
